A study of Mus musculus with 12 samples.

Results

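AMP-activated protein kinase (AMPK), its upstream kinases and the PGC-1 coactivators were followed in mouse liver through 10 genes. They were the catalytic subunits Prkaa1 and Prkaa2, the scaffold subunits Prkab1 and Prkab2, the regulatory subunits Prkag1 and Prkag2, the kinases Stk11 and Camkk2, and the coactivators Ppargc1a and Ppargc1b. Every probe of the array whose accession belongs to 1 of these genes was taken, whatever its value. This gave 12 of the 39429 probes (21 of 43020 spots), for 10 of the 20886 genes that could be named.

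Livers of 12 female C57BL/6N mice, 3 per diet, were taken after 6 months of feeding, and the RNA of each was hybridised to 1 one-colour (Cy3) Agilent array. The Ctrl diet was an NFD with corn starch and sucrose as its carbohydrate. The RS diet was the same with resveratrol added. In the DJ diet, rice of the variety Dongjin took the place of the starch and sucrose, and in the DJ526 diet the rice was DJ526, a Dongjin line given the stilbene synthase gene of peanut, which makes resveratrol in the grain. DJ526 against DJ is therefore a comparison of both the transferred gene and its product in 1 rice line. Mice were housed in groups, and the labels do not say which cage a liver came from. The methods state that cages were assigned to the diets, so that cage and diet cannot be told apart.

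AMPK is a complex of a catalytic, a scaffold and a regulatory subunit that senses a falling energy charge and switches the hepatocyte from lipid and glucose synthesis to oxidation. It is activated when LKB1, encoded by Stk11, or the calcium-dependent kinase CaMKK2 phosphorylates the catalytic subunit. PGC-1α, encoded by Ppargc1a, and its relative PGC-1β are coactivators that raise the transcription of mitochondrial and, in the fasted liver, gluconeogenic genes, and resveratrol is widely studied as an agent that acts on this pathway. Phosphorylation and protein were not measured on these arrays, so that all values below are of RNA.

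The sequences upstream of 4 of the genes are shown because these genes give the widest contrast in how steady the RNA was between mice: Ppargc1a varied most of the genes for which a sequence was at hand, Prkaa1 least, Prkag1 ran opposite to Prkaa1, and Prkaa2 is the other catalytic subunit. Each is the 250 bases before the start of the gene, 5′ to 3′ on the strand of the gene, from RefSeq (mouse GRCm38.p6), with CG dinucleotides in capitals. Ppargc1a lies at chr5:51567726-51567975 (minus strand), Prkaa1 at chr15:5143611-5143860 (plus), Prkaa2 at chr4:105109899-105110148 (minus) and Prkag1 at chr15:98831509-98831758 (minus).
Ppargc1a: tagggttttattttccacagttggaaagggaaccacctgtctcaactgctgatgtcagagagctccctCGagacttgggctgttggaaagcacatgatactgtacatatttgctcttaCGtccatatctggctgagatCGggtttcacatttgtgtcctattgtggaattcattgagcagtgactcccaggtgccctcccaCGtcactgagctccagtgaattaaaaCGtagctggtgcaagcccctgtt
Prkaa1: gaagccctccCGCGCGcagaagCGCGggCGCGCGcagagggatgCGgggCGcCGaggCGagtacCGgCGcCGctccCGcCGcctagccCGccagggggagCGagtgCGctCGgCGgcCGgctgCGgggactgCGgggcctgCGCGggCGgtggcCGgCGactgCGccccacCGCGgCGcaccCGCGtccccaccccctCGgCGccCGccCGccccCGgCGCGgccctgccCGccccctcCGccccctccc
Prkaa2: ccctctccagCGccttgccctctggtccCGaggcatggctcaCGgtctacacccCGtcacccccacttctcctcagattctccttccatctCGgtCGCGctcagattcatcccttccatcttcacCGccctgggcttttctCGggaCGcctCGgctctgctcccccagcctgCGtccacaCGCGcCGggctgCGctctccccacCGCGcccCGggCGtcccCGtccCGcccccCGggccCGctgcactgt
Prkag1: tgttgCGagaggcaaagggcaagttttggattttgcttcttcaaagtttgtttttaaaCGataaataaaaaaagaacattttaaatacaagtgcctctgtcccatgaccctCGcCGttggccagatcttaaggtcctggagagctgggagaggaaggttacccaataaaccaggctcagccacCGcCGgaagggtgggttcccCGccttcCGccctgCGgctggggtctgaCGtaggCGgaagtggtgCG

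The Prkaa1 window held 45 CG dinucleotides and 85.2% G or C, and Prkaa2 held 24 and 70.0%. Prkag1 held 12 and 51.6%, and Ppargc1a 5 and 48.0%, against medians of 6 and 52.4% over 32851 promoter windows of the same length. Prkaa1 was thus above 99.9% of all windows in G and C, and Ppargc1a above 33.8%. The CRE core TGACG, searched on both strands, was in 17.8% of all windows and in 4 of the 11 windows of the genes studied here, once each in Ppargc1a (49 bases before the start), Prkaa2, Prkag1 (22 bases before the start) and Stk11. The full element TGACGTCA, which contains the core on both strands, was in 0 of the 11 and in 1.55% of all windows. The CCAAT box was in 4 of the 11 windows and in 33.8% of all. These matches describe letters only, and windows for 9 of the 10 genes were at hand.

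Values are given as log2 levels, that is, log2 of the processed signal of a probe minus log2 of the 75th percentile of its array, so that 1 unit is a factor of 2 and a level of 0 is the 75th percentile. Apart from the sums of cell markers given below, levels were compared only within a probe, since probes differ in how well they bind. All 12 probes were well above background on all 12 arrays, and none was saturated. Per array, 73.0% to 80.8% of spots rose above background by the scanner software's flag, and the 75th percentile was a signal of 952 to 1166. All 7 hepatocyte markers, albumin among them, passed this flag on each of the 12 arrays. Among the 4 skeletal muscle markers, Acta1 and Tnnt3 also passed it on all 12, and Myh4 on none. The arrays lay on 3 slides: Ctrl 1 to 3 and DJ 1 on slide 1, DJ 2, DJ 3, RS 1 and RS 2 on slide 2, and RS 3 and DJ526 1 to 3 on slide 3. Ctrl and DJ526 thus never shared a slide. A table supplied with the study lists the RS and DJ arrays the other way round. The sample labels were followed here. With an exchange, the values of RS and DJ would swap, DJ526 against DJ would become DJ526 against RS, and the contrasts for resveratrol and for rice would trade places. With the exchange made, 0 of the 12 probes passed in any comparison. In bulk liver, fewer cells of a type and less RNA per cell cannot be told apart.

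None of the 12 probes passed the test in any of the 6 pairwise comparisons of the diets, nor for resveratrol on both backgrounds, rice on both, or the difference between the resveratrol effects (limma, adjusted p threshold 0.05 over all probes). The share of all probes that passed was 0% for RS against Ctrl, DJ against Ctrl and DJ against RS, 0.00507% (2 probes) for DJ526 against Ctrl, 0.0101% (4) for DJ526 against DJ and 0.00761% (3) for DJ526 against RS. It was 0% for resveratrol on both backgrounds, rice on both and the difference. So few calls over the whole array give the 0 of 12 little to be read against. The lowest adjusted p of any of the 12 was 0.376, for Camkk2 in DJ526 against DJ. For this comparison the deviations of same-numbered livers from their diet means correlated at 0.164 to 0.286, though the labels do not say that the numbers pair livers. With the number as a block over all 12 arrays, 0 probes of the whole array passed and the adjusted p of Camkk2 was 0.474.

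**Figure D1:**
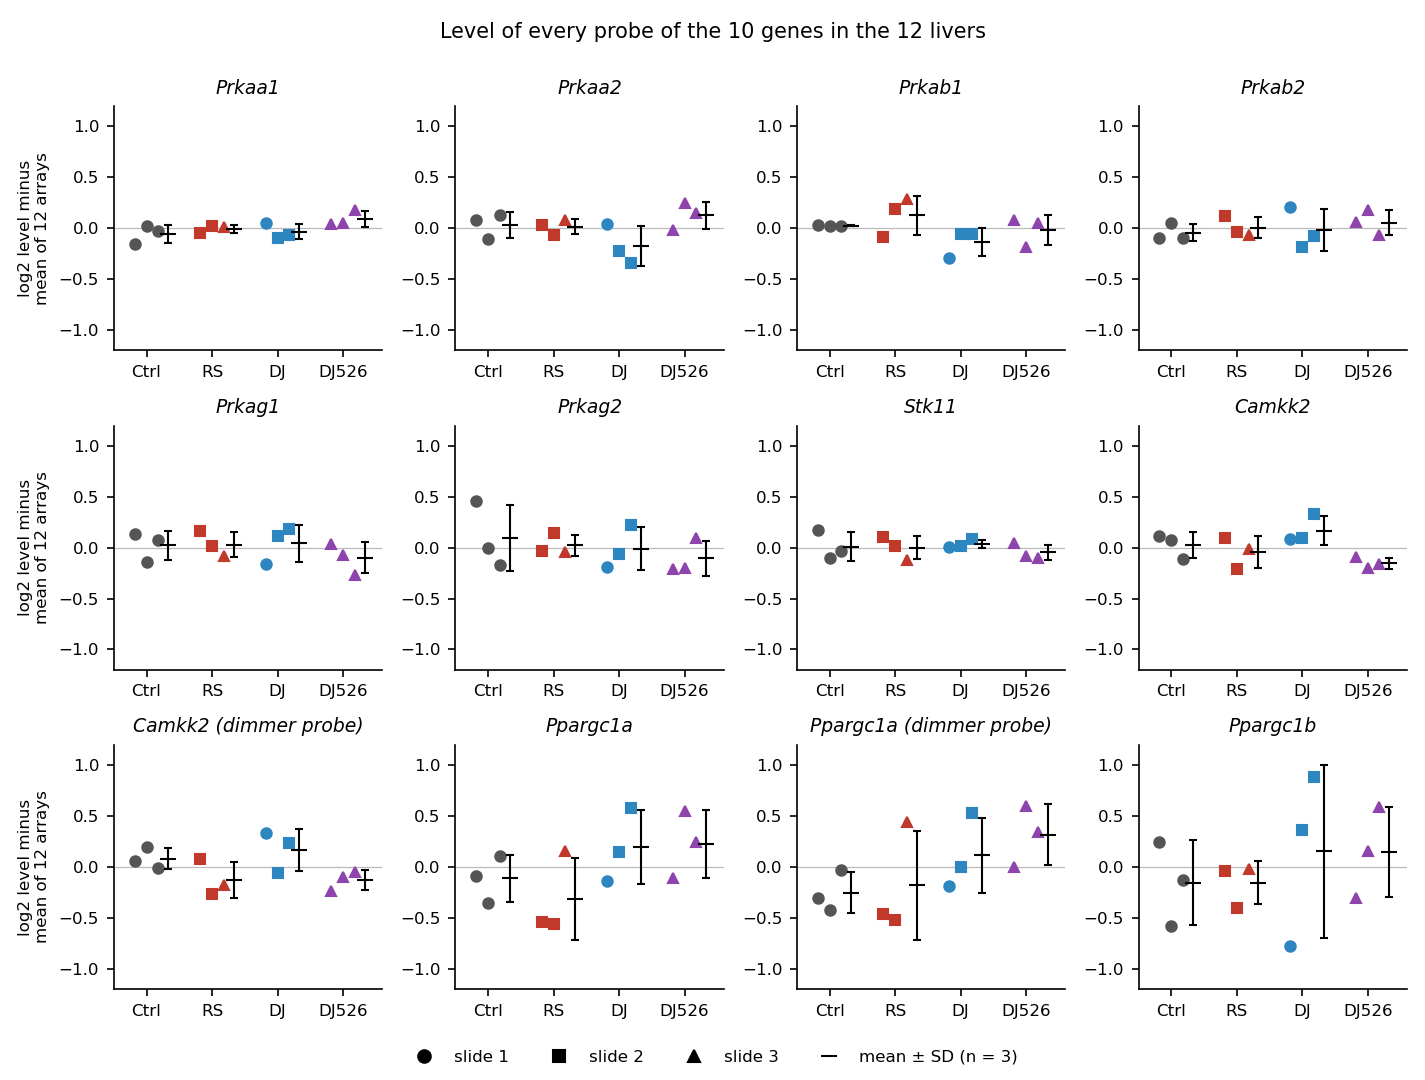
Log2 level minus the probe's mean over the 12 arrays (y axis) for each of the 12 probes, 1 panel per probe, in the 3 livers of each diet, shaped by slide, with the mean and SD (n = 3) of each diet beside them. Prkaa1 and Stk11 stayed within 0.34 and 0.29 over all 12 livers, whereas Ppargc1b spanned 1.66.

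The catalytic subunits carry the kinase domain. Prkaa1, α1 (probe A_51_P158922), stood at -0.85, -0.68 and -0.73 in Ctrl, at -0.75, -0.68 and -0.69 in RS, at -0.65, -0.79 and -0.76 in DJ and at -0.65, -0.65 and -0.52 in DJ526, in the order of the replicates. All 3 DJ526 livers lay above all Ctrl and all RS livers, though by little, while DJ overlapped every other diet. The difference was 0.15 (1.11-fold, SE 0.0813, adjusted p = 0.539) against Ctrl and 0.10 (SE 0.0813, adjusted p = 0.987) against RS. Neither passed the test.

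Prkaa2, α2 (probe A_52_P137378), is the catalytic isoform known for its role in liver and muscle metabolism. Its level was 1.55, 1.36 and 1.60 in Ctrl, 1.50, 1.41 and 1.55 in RS, 1.51, 1.25 and 1.13 in DJ, and 1.45, 1.72 and 1.62 in DJ526. DJ had the lowest mean and DJ526 the highest, and the 2 lowest livers of all were DJ 2 and DJ 3, but DJ 1 lay among the other diets. DJ526 was 0.30 above DJ (1.23-fold, SE 0.110, 95% interval 0.06 to 0.54), with an adjusted p of 0.444. It would be 0.11 with RS and DJ exchanged. This difference, like the others below that are given for an unadjusted p under 0.05, was picked after the values were seen. Across the 12 arrays the Prkaa2 level followed the share of spots well above background (r = 0.72), whose part in the difference was not tested.

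The scaffold subunits join the complex and bind glycogen. For Prkab1, β1 (probe A_55_P2182700), the levels were -1.43, -1.44 and -1.44 in Ctrl, -1.55, -1.28 and -1.18 in RS, -1.75, -1.52 and -1.52 in DJ, and -1.38, -1.65 and -1.41 in DJ526. The Ctrl livers had an SD of 0.0083, so that DJ did not overlap them although the difference was only -0.16 (SE 0.120, adjusted p = 1.00). The DJ mean was the lowest and the RS mean the highest. Prkab2, β2 (probe A_52_P126266), lay between -2.63 and -2.23 in all livers, and both of these extremes were DJ livers. Its 4 group means spanned -2.49 in Ctrl to -2.39 in DJ526, and every diet overlapped every other.

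The regulatory subunits hold the nucleotide-binding sites. Prkag1, γ1 (probe A_51_P121818), had its lowest mean in DJ526, with livers at 1.11, 1.00 and 0.81, and its highest in DJ, with 0.91, 1.18 and 1.25. Ctrl (1.20, 0.93 and 1.15) and RS (1.23, 1.08 and 0.99) lay between, and all diets overlapped. Its probe was printed 10 times on each array, and the SD between these spots was 0.0333 to 0.0545, under the 0.12 to 0.18 between mice of a diet. Prkag2, γ2 (probe A_55_P2013296), reached 2.63 in Ctrl 1 and lay between 1.96 and 2.39 in the other 11 livers, and its mean ran from 2.07 in DJ526 to 2.26 in Ctrl, with every pair of diets overlapping.

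Of the upstream kinases, Stk11 (probe A_55_P2166399) was steady. It ranged from 0.79 in RS 3 to 1.08 in Ctrl 1, and its group mean was 0.86 ± 0.08 on DJ526, 0.91 ± 0.11 on RS, 0.92 ± 0.14 on Ctrl and 0.94 ± 0.04 on DJ (SD, n = 3). No diet separated from another.

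Camkk2 was read by a pair of probes. The brighter one (A_55_P2329923) gave 1.73, 1.69 and 1.50 in Ctrl, 1.71, 1.40 and 1.60 in RS, 1.69, 1.70 and 1.95 in DJ, and 1.52, 1.41 and 1.45 in DJ526. All DJ526 livers lay below all DJ livers, while Ctrl and RS overlapped both. DJ526 was lower than DJ by 0.32 (0.80-fold, SE 0.101, 95% interval -0.54 to -0.10), with an unadjusted p of 0.00897 and an adjusted p of 0.376. With RS and DJ exchanged the difference would be -0.11. Over both backgrounds the diets with resveratrol were at -0.20 relative to those without (SE 0.0716, adjusted p = 0.410). Within this contrast RS was at -0.07 relative to Ctrl (SE 0.101, adjusted p = 0.996), so that the larger part came from DJ526 against DJ. The value over both backgrounds would be 0.02 with RS and DJ exchanged. The comparison of DJ526 with DJ could not be made within a slide, since no slide held both.

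The dimmer Camkk2 probe (A_55_P2125684) ordered the diets in the same way, from DJ526 through RS and Ctrl to DJ. It stood at -4.53, -4.39 and -4.60 in Ctrl, -4.52, -4.86 and -4.77 in RS, -4.26, -4.65 and -4.36 in DJ, and -4.83, -4.69 and -4.64 in DJ526. Here DJ526 did not overlap Ctrl (-0.21, SE 0.168, adjusted p = 0.672) and overlapped DJ at 1 liver. The 2 probes had r = 0.71 over the 12 arrays (permutation p = 0.0092, adjusted p = 0.0974), and r = 0.47 once the group means were removed. In rank, rho was 0.68 (permutation p = 0.0181, adjusted p = 0.142).

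Ppargc1a was also read by a pair of probes, both for the same transcript. On the brighter probe (A_51_P279038) the levels were 1.14, 0.87 and 1.33 in Ctrl, 0.68, 0.67 and 1.38 in RS, 1.09, 1.37 and 1.81 in DJ, and 1.11, 1.77 and 1.47 in DJ526. The rice diets had the higher means, 1.42 ± 0.36 in DJ and 1.45 ± 0.33 in DJ526 against 1.11 ± 0.23 in Ctrl and 0.91 ± 0.41 in RS (SD, n = 3), but each rice diet had a liver inside the range of Ctrl. RS was split, with RS 1 and RS 2 the lowest livers of all and RS 3 above every Ctrl liver.

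The dimmer Ppargc1a probe (A_55_P2011702) gave -3.38, -3.51 and -3.12 in Ctrl, -3.55, -3.60 and -2.64 in RS, -3.27, -3.09 and -2.56 in DJ, and -3.08, -2.48 and -2.74 in DJ526. All DJ526 livers lay above all Ctrl livers, though DJ526 1 lay only just above Ctrl 3. The difference from Ctrl was 0.57 (1.48-fold, SE 0.277, 95% interval -0.04 to 1.18, adjusted p = 0.489). On the brighter probe it was 0.34 (SE 0.242, adjusted p = 0.637).

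Rice on both backgrounds was at 0.43 relative to starch and sucrose on each Ppargc1a probe (SE 0.171 on the brighter and 0.196 on the dimmer, adjusted p = 0.976 for both), and would be at -0.09 and 0.14 with RS and DJ exchanged. DJ526 was 0.54 above RS on the brighter probe (SE 0.242, adjusted p = 0.900), and this value became 0.78 without RS 3 and would be 0.03 with the exchange. These values moved with the slide. Within slide 3, DJ526 exceeded the single RS liver by 0.07 on the brighter probe and was at -0.12 relative to it on the dimmer. Within slide 2, the DJ livers were 0.91 and 0.75 above the RS livers (2 against 2), and within slide 1 the single DJ liver was at -0.03 and 0.07 relative to Ctrl. With the slide as a block the rice difference became 0.02 and -0.03. DJ526 against Ctrl became -0.87 and -0.81, a contrast for which the block relies on the single livers DJ 1 and RS 3, and how far slide and diet each contribute cannot be told apart.

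Ppargc1b (probe A_55_P1993168) varied more between mice of the same diet than any other gene here. Its levels were -1.46, -2.28 and -1.84 in Ctrl, -1.74, -2.11 and -1.73 in RS, -2.49, -1.34 and -0.83 in DJ, and -2.01, -1.55 and -1.12 in DJ526. The lowest and the highest liver of all 12 were both on the DJ diet, DJ 1 on slide 1 and DJ 3 on slide 2, and every diet overlapped every other. Its differences between diets lay within 0.31 of 0, and the 95% intervals reached as far as 1.14. With the slide as a block RS against Ctrl moved from 0.00076 to -1.47 (adjusted p = 0.363).

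**Figure D2:**
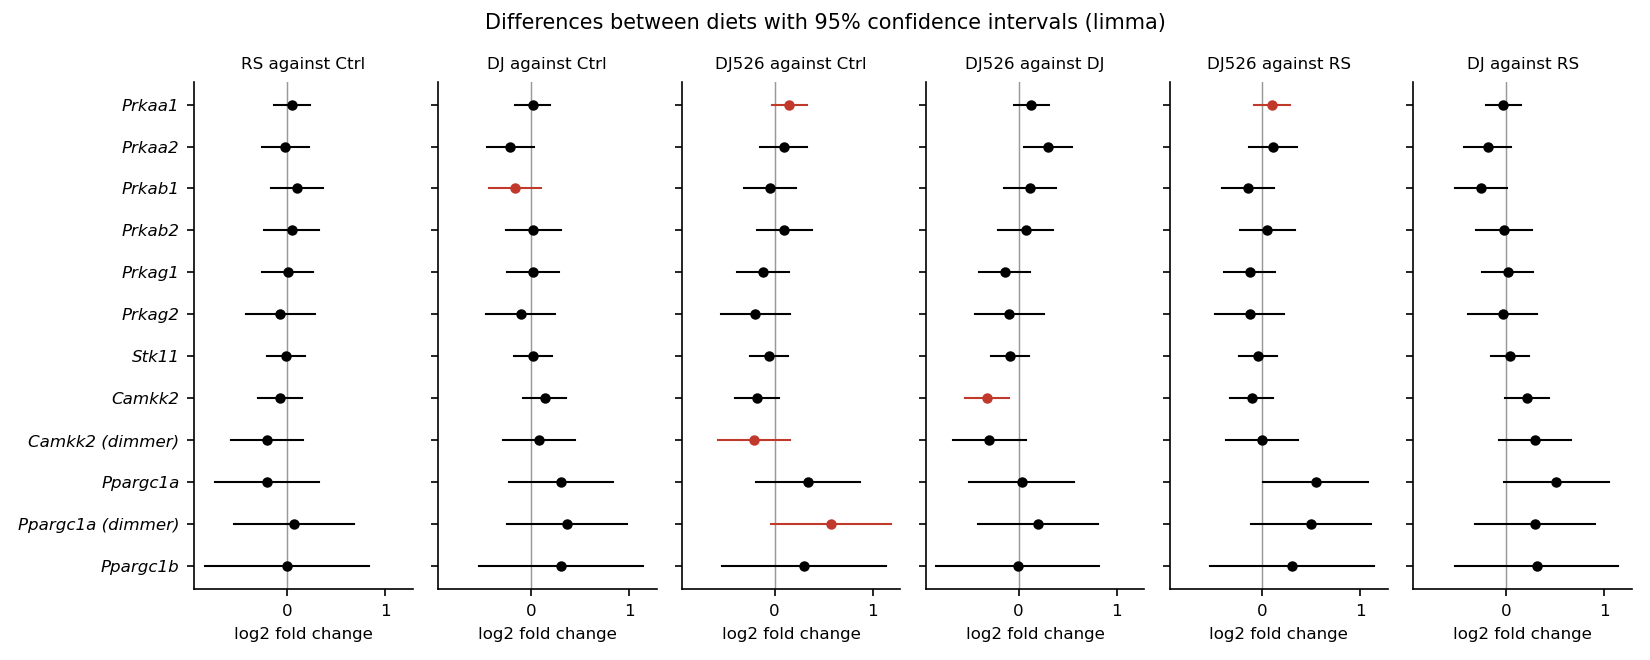
Log2 fold change (x axis) of each probe in the 6 pairwise comparisons of the diets, with limma's 95% confidence interval as a bar and in red the probes whose 3 arrays of one diet do not overlap the 3 of the other. None passed the adjusted threshold, and the intervals are narrow for the AMPK subunits and wide for Ppargc1a and Ppargc1b.

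Counted over the 12 probes, the arrays of the diets did not overlap for 0 probes in RS against Ctrl, 1 in DJ against Ctrl, 3 in DJ526 against Ctrl, 1 in DJ526 against DJ, 1 in DJ526 against RS and 0 in DJ against RS. Over all probes this held for 10.2%, 9.36%, 20.6%, 18.4%, 11.1% and 6.38%. The counts of the 12 probes were thus near these shares or under them. An unadjusted p under 0.05 was reached by 0, 0, 0, 2, 1 and 0 of the 12 probes in the same order, where 6%, 5.2%, 10.8%, 9.84%, 5.52% and 3.51% of all probes reached it. It was reached by 1 of the 12 for resveratrol on both backgrounds (10% of all probes), 2 for rice on both (4.56%), which are the Ppargc1a probes, and 0 for the difference between the resveratrol effects (6.09%). The median difference of the 12 probes from Ctrl was -0.01 for RS, 0.02 for DJ and 0.02 for DJ526, beside 0.03, -0.01 and 0.02 over all probes. Each of these comparisons with Ctrl uses the same 3 control livers.

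What the test could have seen depended on the gene. The SE of a pairwise difference was 0.0813 for Prkaa1 and 0.379 for Ppargc1b. For Prkaa1 the 95% intervals of all 6 pairwise differences stayed within 0.33 of 0, which for DJ526 against Ctrl ran from -0.03 to 0.33. For Ppargc1a on the dimmer probe the same comparison allowed up to 1.18.

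The pooled SD between mice of a diet differed widely between the genes. It was 0.0725 for Prkaa1, lower than for all but 4.94% of the 27327 probes detected on all 12 arrays, and 0.101 for Stk11. The subunits Prkaa2, Prkab1, Prkab2 and Prkag1 lay between 0.137 and 0.152, under the median of 0.191 of those probes, and Prkag2 was at 0.218. Camkk2 was at 0.125 on the brighter and 0.154 on the dimmer probe. Ppargc1a reached 0.338 on the brighter and 0.373 on the dimmer probe, and Ppargc1b 0.533, above 93.8% of the probes. The SD between the 10 Prkag1 spots of an array, the only measure of spot error among the 12 probes, had a median of 0.0407.

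**Figure D3:**
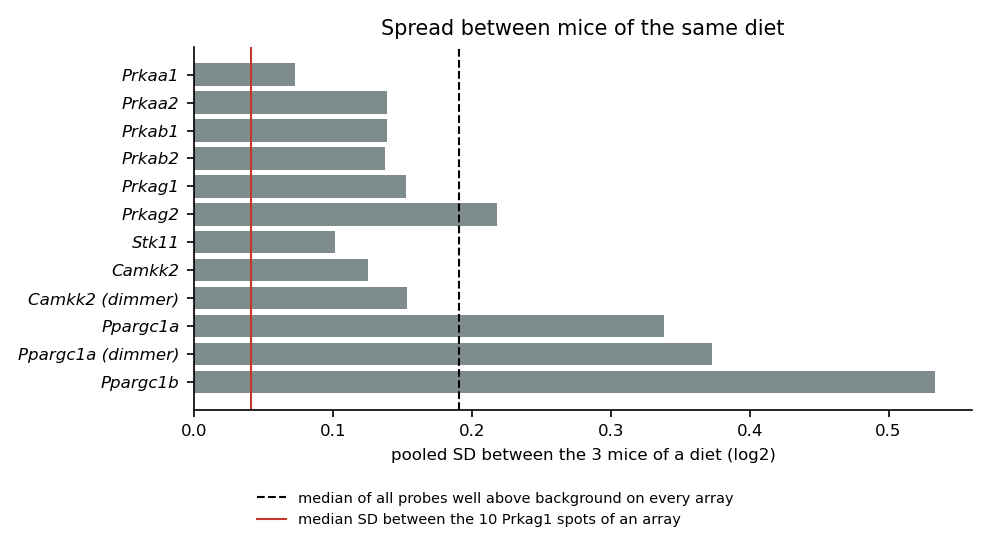
Pooled SD (x axis, log2 units) between the 3 mice of a diet for each of the 12 probes, with the median over all probes well above background on every array as a dashed line and the median SD between the 10 Prkag1 spots of an array as a red line. Prkaa1 is the steadiest at 0.0725 and Ppargc1b the most variable at 0.533. The livers of DJ and of RS were divided between slides, so that the SD also holds any difference between slides.

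Relations between the genes over the 12 arrays were computed for the 45 pairs of genes and the pairs of probes of Ppargc1a and of Camkk2, 47 in all, with 100000 permutations and Benjamini-Hochberg adjustment. All levels share the scaling and the RNA of their array. The probes of Ppargc1a ran together (r = 0.94, permutation p = 1e-05, the smallest the permutations can give, adjusted p = 0.00047, and rho = 0.93, adjusted p = 0.00235). The relation was r = 0.91 without the 2 livers farthest from the median, and 0.97 within slides. With the group means removed it was 0.98, so that the difference between mice of 1 diet was read alike by both probes.

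Prkaa1 and Prkag1 ran in opposite directions (r = -0.84, rho = -0.81, permutation p = 0.00026 for r, adjusted p = 0.00611 for r and 0.0357 for rho). This held without the 2 farthest livers (r = -0.78), within slides (-0.85) and within diets (-0.87). Prkag1 rose with Stk11 in rank (rho = 0.81, adjusted p = 0.0357, r = 0.77 with an adjusted p of 0.0594), and within slides r was 0.68. Along the third principal component of all arrays (13.6% of the variance), Stk11 had r = 0.79, Prkag1 0.58 and Prkaa1 -0.68, and the part of that component in these relations was not tested.

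Ppargc1a and Ppargc1b also rose together in rank (rho = 0.78, adjusted p = 0.0491), with r = 0.68 (permutation p = 0.0163, adjusted p = 0.110). Without the 2 livers farthest from the median of Ppargc1a r fell to 0.52, so that the linear relation rested partly on them. Within slides r was 0.76. No other of the 47 relations had an adjusted p under 0.05 by r or by rho.

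**Figure D4:**
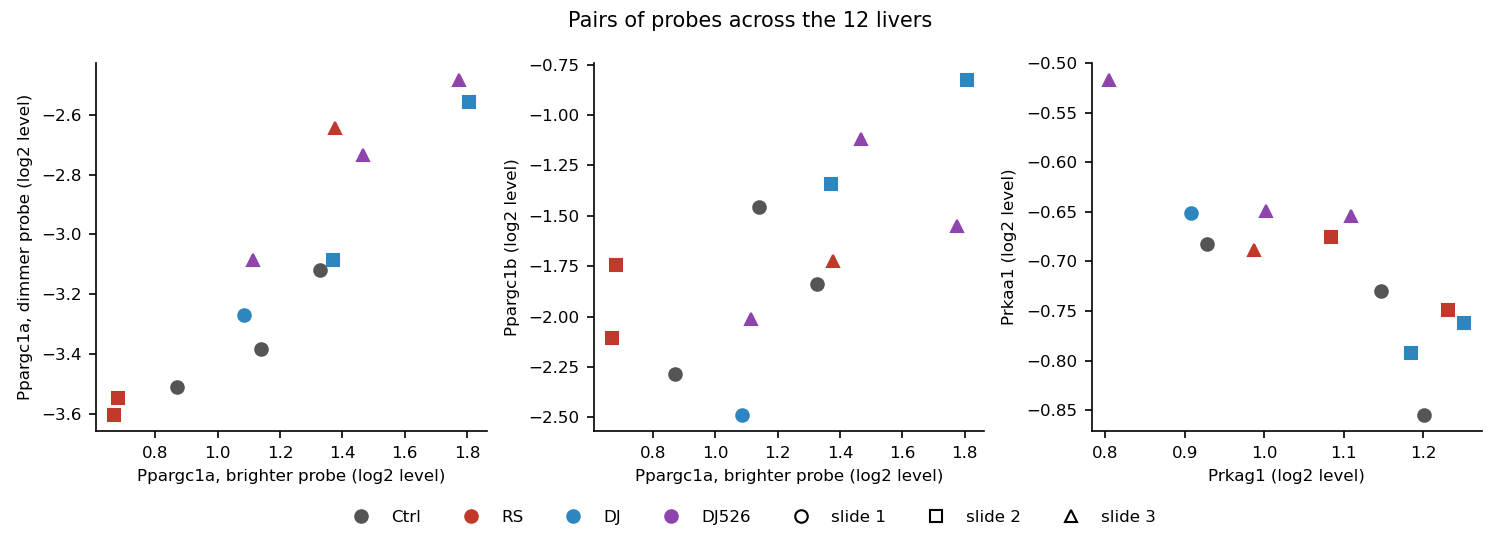
Log2 levels of pairs of probes in the 12 livers, coloured by diet and shaped by slide, for both Ppargc1a probes (left), Ppargc1a and Ppargc1b (middle) and Prkag1 and Prkaa1 (right). Both Ppargc1a probes place RS 1 and RS 2 lowest (r = 0.94), and Prkaa1 is lower where Prkag1 is higher (r = -0.84).

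The named genes most like each member in level over the 12 arrays, out of 15573, were Pi4k2b for Prkaa1 (r = 0.93), Rprml for Prkaa2 (0.92), Pde6g for Prkab1 (0.90), Foxm1 for Prkab2 (0.91), Pex19 for Prkag1 (0.93) and Rpp38 for Prkag2 (0.92). For the kinases they were Nhlrc3 for Stk11 (0.94) and Mtnr1a for Camkk2 (0.94). Cops6 (0.89), Igf2r (0.88) and C77080 (0.87) were most like Ppargc1a, and Mrpl41 (0.91), Pdk2 (0.88) and Nr1d1 (0.88) most like Ppargc1b. Mrpl41 encodes a mitochondrial ribosomal protein, Pdk2 a kinase that restrains pyruvate oxidation, and Nr1d1 the clock repressor REV-ERBα. As the highest of so many correlations over 12 arrays, these values are large by selection and are a description only.

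The other genes of the pathway were read by list. Of 12 further members and regulators of the AMPK and LKB1 complexes, 0 passed the test in either direction for RS, DJ or DJ526 against Ctrl, and their median differences were 0.05, 0.02 and 0.07. Strada, the pseudokinase partner of LKB1, was higher than Ctrl in all 3 DJ livers (0.24, SE 0.163, adjusted p = 0.995). Map3k7, which encodes the kinase TAK1, was lower than Ctrl in all 3 RS livers (-0.27, SE 0.125, adjusted p = 0.840). RS 2, at 0.65, carried much of this, while RS 1, at 1.17, lay only just below Ctrl 3 at 1.20. Cab39l, a scaffold of the LKB1 complex, was at 0.09 in RS (SE 0.0741, adjusted p = 0.945).

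Of 13 AMPK-related kinases, which LKB1 also activates or which share the AMPK kinase fold, 0 passed against Ctrl. Sik1, which restrains CREB signalling in the fasted liver, stood at -0.13, -0.36 and -0.19 in Ctrl and at -0.44, -0.86 and -0.89 in DJ526. The difference was -0.50 (SE 0.183, adjusted p = 0.372), and in RS (-0.46, 0.04 and -0.58) and DJ (0.02, -0.37 and -0.43) the levels overlapped those of Ctrl. Sik3 was lower than Ctrl in all 3 RS livers (-0.20, SE 0.0930, adjusted p = 0.834). RS 1, at 2.64, carried much of this, with RS 2 and RS 3 at 2.95 and 2.98 and Ctrl 1 at 3.01.

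AMPK substrates numbered 15, of which 0 passed. Pfkfb3, a kinase that drives glycolysis, was higher than every Ctrl liver in the 3 DJ livers (0.45, adjusted p = 1.00) and in the 3 DJ526 livers (0.53, SE 0.316, adjusted p = 0.573). DJ 3, at 1.27, carried much of the first of these, since DJ 1 and DJ 2 were at 0.34 and 0.33 and Ctrl 3 at 0.31. Foxo3, a FOXO transcription factor, was 0.49 above Ctrl in DJ526 (SE 0.207, adjusted p = 0.436). Its probe was dim, at -4.63, -5.14 and -4.64 in Ctrl and -4.59, -4.22 and -4.13 in DJ526, so that DJ526 1 lay only just above Ctrl 1.

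Among 20 partners and regulators of PGC-1, 0 passed. Esrra, the nuclear receptor ERRα through which PGC-1α raises mitochondrial genes, stood at 3.06, 3.00 and 3.15 in Ctrl and at 2.89, 2.73 and 2.89 in DJ (-0.23, SE 0.0838, adjusted p = 0.900). Med1, a mediator subunit, was higher than Ctrl in DJ (0.27, adjusted p = 0.842) and in RS (0.16, adjusted p = 0.895). Foxo1, which drives gluconeogenic genes with PGC-1α, was at 0.36 in DJ526 (SE 0.160, adjusted p = 0.456) and Crem, a cAMP-responsive factor, at 0.29 (SE 0.127, adjusted p = 0.456). Sirt1, the deacetylase of PGC-1α, was at -0.17 in RS (SE 0.112, adjusted p = 0.928).

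Of 20 genes known as targets of PGC-1 in liver, 0 passed as well, and 12, 15 and 15 of them were lower than Ctrl in RS, DJ and DJ526. Of all probes, 56.8%, 47.0% and 53.7% were higher than Ctrl. The median differences of the targets were -0.07, -0.08 and -0.10, beside 0.03, -0.01 and 0.02 over all probes. The means of Ppargc1a itself were higher than Ctrl in DJ and DJ526, though for DJ526 the sign turned with the slide as a block. In RS, Ppargc1a was at -0.20 relative to Ctrl on the brighter probe and 0.07 on the dimmer. Whether the targets followed Ppargc1a was not tested. Cyp7a1, the rate-limiting enzyme of bile acid synthesis, was at 1.20, 1.28 and 2.08 in Ctrl and at 0.32, 0.58 and 0.69 in DJ526. The difference was -0.99 (SE 0.414, adjusted p = 0.429), while DJ held both a liver at 1.42 and the lowest of all at -0.53. Cycs, cytochrome c, was lower than Ctrl in all 3 RS livers (-0.28, SE 0.140, adjusted p = 0.856), and Idh3a, a subunit of isocitrate dehydrogenase, in all 3 DJ livers (-0.27, SE 0.105, adjusted p = 0.919). For Cycs, RS 1 at 5.15 lay only just below Ctrl 2 at 5.18. For Idh3a, DJ 1 at 1.61 lay only just below Ctrl 1 at 1.62. Ndufs1 in DJ (-0.17), Tfb1m in DJ526 (-0.23) and Atp5b in RS (-0.07) were the other targets named for not overlapping Ctrl. Without overlap, 2, 3 and 3 targets were lower than Ctrl in RS, DJ and DJ526, and 0, 0 and 1 were higher. Over all probes, 3.99%, 4.8% and 7.92% were lower without overlap and 6.24%, 4.57% and 12.7% higher.

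**Figure D5:**
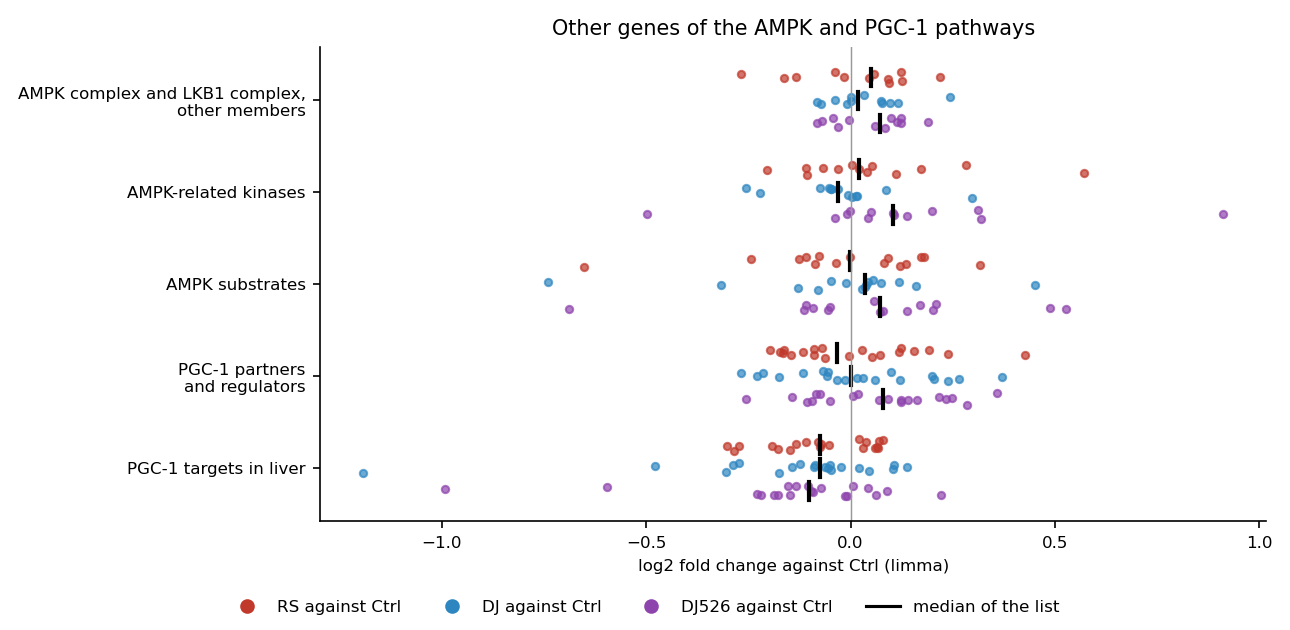
Log2 fold change against Ctrl (x axis) of each gene of the 5 lists in RS, DJ and DJ526, with the median of a list as a black bar. The points scatter on both sides of 0 in every list, and the medians run from -0.10 to 0.10.

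Markers of other cells were set beside these values. The summed linear level of the hepatocyte markers was 1453 to 1644 in Ctrl, 1549 to 1676 in RS, 1667 to 1766 in DJ and 1462 to 1519 in DJ526 (in units of the 75th percentile), so that it was higher in every DJ liver than in every Ctrl and DJ526 liver. Kupffer cell and macrophage markers (5 measured, all detected) summed to 71.2 to 131 in Ctrl, 57.4 to 80.5 in RS, 55.0 to 85.5 in DJ and 56.1 to 84.0 in DJ526. In DJ526 against DJ their median difference was 0.02 and 0 of the 5 separated the diets, while the 7 hepatocyte markers had a median of -0.12 and 2 of them were lower in every DJ526 liver. Over all probes, 18.4% separated these diets and 6.25% were lower in every DJ526 liver. The part of the hepatocyte markers in the levels of Prkaa2 or Camkk2 was not tested. The 5 lymphocyte markers summed to 2.26 to 2.72 in Ctrl, 2.15 to 3.17 in RS, 2.35 to 5.75 in DJ and 2.61 to 4.41 in DJ526. In DJ526 against Ctrl their median difference was 1.05, with 2 of the 5 higher in every DJ526 liver, and 0 of the 5 passed the test. Of all probes, 12.7% were higher in every DJ526 liver than in every Ctrl liver. The part of the lymphocyte markers in the values of DJ526 against Ctrl was not tested. Adipocyte markers (4 measured, 1 detected on every array) summed to 0.0524 to 1.11 in Ctrl, 0.0467 to 0.600 in RS, 0.0740 to 0.597 in DJ and 0.0563 to 0.0668 in DJ526. The highest sum of each of the first 3 diets was in Ctrl 1, RS 1 and DJ 2. The part of the adipocyte markers in the levels of the genes was not tested. Skeletal muscle, where Ppargc1a and Prkaa2 are also expressed, had a summed marker level of at most 0.0891 in any liver.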

How the data were processed

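Liver RNA of 12 mice, 3 per diet, was read on 12 one-colour arrays. The authors deposited the signal intensity of each spot as written by Feature Extraction (version 11.5.1.1, per the file headers), on a linear scale and with the background already subtracted, and a table of globally normalized intensities, which are that signal times 1 factor per array (0.959 to 1.08) for 99.9% of the probes (relative tolerance 0.0001). The deposited flags for background, outliers and saturation are other values of 0 or 1. Per array, 93 to 197 outlier spots were left out, spots of a probe were averaged, and the log2 signal was centred on the 75th percentile of all non-control spots. The log2 values were computed here, not by the authors. Probes were named through RefSeq accessions (27508 of 39429).

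Groups came from the labels; a table supplied with the study exchanges RS and DJ, and this was run as an alternative added after seeing the data. Replicate numbers are not said to mark a shared cage or day. Deviations of same-numbered livers correlated at 0.164 to 0.286 for DJ with DJ526, all 3 above 0.1, and so the number was also used as a block. No other pair of diets had all 3 above 0.1, but single values were as high as 0.406 (RS 1 with DJ526 1). These correlations come from the same data, so that a true pairing is not known. limma (3.58.1, R 4.3.3) was fitted with 1 mean per diet over all 12 arrays and a variance trend, with Benjamini-Hochberg adjustment over the whole array (threshold 0.05). The arrays of a diet are separate animals by the methods, though some may share a cage, and 3 per diet limits the precision. An exact permutation test of 3 against 3 cannot go below p = 0.1. Scripts were tested on simulated data. Correlations used numpy 2.4.6 and scipy 1.17.1 (Python 3.11.15), and figures matplotlib 3.10.9. Probes were named in the text where the 3 arrays of a diet did not overlap those of another; list genes likewise, up to 2 per list and comparison. The members and lists were chosen with earlier results of these data known. Alternatives were other scalings, normexp on the median pixel (offset 50), the deposited table, a filter on dim probes, blocks for slide and replicate number, the variance trend, only the groups compared, the methods' t-test and leaving out each array. Centring by position on the array and the replicate block with only the groups compared were also added then. The array header names mm9 and the sequence tables GRCm38.p6, so that no gene coordinates are given beside the promoter windows. Blood, behaviour and PCR data were not used here.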

Additional observations from a re-analysis of the deposited data

How the results depend on the processing

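Of the 12 probes, 0 passed the threshold under every alternative. For the 11 differences whose diets did not overlap or whose unadjusted p was under 0.05, the lowest adjusted p under any alternative was 0.150, for Prkaa2 in DJ526 against DJ without DJ replicate 1. The 11 kept their sign except under 2 alternatives. With the slide as a block, Camkk2 (dimmer probe) in DJ526 against Ctrl became 0.12, Ppargc1a (dimmer probe) in DJ526 against Ctrl -0.81 and Ppargc1a (dimmer probe) for rice -0.027. With RS and DJ exchanged, Prkab1 in DJ against Ctrl became 0.10, Camkk2 (brighter probe) for resveratrol 0.015 and Ppargc1a (brighter probe) for rice -0.087. Among other differences, the slide block turned Ppargc1a (brighter probe) in DJ526 against Ctrl from 0.34 to -0.87 and Ppargc1b in RS against Ctrl from 0.00076 to -1.47. Over all 108 differences of the 12 probes, the slide block turned 40 signs, normexp 20, median scaling 10 and the authors' own scaling 12; the cause was not tested. Leaving out 1 array kept 47 to 48 of the 48 group levels within 1 SD. With 3 livers per diet, dropping 1 can hardly move a mean beyond 1 SD of those livers, so this count says little about stability. Over these runs Ppargc1a (dimmer probe) in DJ526 against Ctrl ran from 0.43 to 0.73 and Prkaa1 from 0.10 to 0.19. In DJ526 against DJ, Prkaa2 ran from 0.22 to 0.41 and Camkk2 (brighter probe) from -0.36 to -0.24.

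Counts over all probes were small and moved. The slide block gave 1 probe for RS against Ctrl, 11 for DJ against Ctrl, 0 for DJ526 against Ctrl, 40 for DJ526 against RS, 3 for rice and 17 for the difference between the resveratrol effects. For DJ526 against Ctrl (2 probes), median scaling gave 4, quantile normalization 9, the filter on dim probes 4, and normexp, no variance trend, only the groups compared and the methods' t-test 0. For DJ526 against DJ (4), the same settings gave 10, 27, 14, and then 1, 11, 0 and 1. For DJ526 against RS (3), the filter gave 8, normexp 1, no variance trend 1, only the groups compared 0 and the t-test 0. For resveratrol on both backgrounds (0), quantile normalization gave 2 and the t-test 1. Leaving out 1 array gave 0 to 4 probes for RS against Ctrl, 0 to 1 for DJ against Ctrl, 0 to 173 for DJ526 against Ctrl, 0 to 107 for DJ526 against DJ, 0 to 28 for DJ526 against RS, 0 to 0 for DJ against RS and for rice, 0 to 1 for resveratrol and 0 to 19 for the difference; 173, 107 and 28 were reached without RS replicate 3 and 19 without DJ replicate 1. The deposited table moved the median of all probes in DJ526 against DJ to 0.10, and the slide block moved it in DJ526 against Ctrl to -0.12.

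Deviations of same-numbered replicates correlated above 0.1 in all 3 cases only for DJ with DJ526. With the replicate number as a block over all arrays, limma called 0 probes for DJ526 against Ctrl, 0 against DJ and 0 against RS, turned 0 signs of the 12 probes and called none of them. With the block and only the diets compared, the counts were 5 for RS against Ctrl, 0 for DJ526 against Ctrl, 0 against DJ and 0 against RS.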
